A study of Homo sapiens with 4 samples.

Results

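Box C/D, box H/ACA and Cajal-body guide RNAs are short noncoding RNAs that lead modifying enzymes to other RNAs by base pairing. Of the 18993 peaks in a PRMT5 RNA immunoprecipitation (RIP) list, 54 lay on such genes. A peak was taken when it shared at least 1 nt with a SNORD, SNORA or SCARNA gene of RefSeq (GRCh38.p14) and was at most 500 nt wide. It also had to lie on the strand of that gene, which was inferred from peak identifiers or the host gene. These peaks carried 51 genes of the 573 in the annotation. The SNORD genes (box C/D) gave 23 peaks on 23 of 362 genes, the SNORA genes (box H/ACA) gave 22 peaks on 20 of 182 genes, and the SCARNA genes (Cajal-body) gave 9 peaks on 8 of 29 genes. Another 86 guide RNA genes lay only under wider peaks and 435 lay under no peak, both counted on either strand. The last 1, SNORD141A, lay under a peak whose strand could not be matched.

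The RNA came from cells of the human line Jurkat, which was established from a T cell leukemia, all stimulated with PHA (a lectin that activates T cells) for 48 hours and fixed with UV light, which the labels give as 264 nm and 400 mJ. PRMT5 was recovered with an antibody to the FLAG tag, and 2 PRMT5 RIP libraries were compared with 2 input libraries. The list holds 1 pooled value for each side of that comparison, in RPM (reads scaled to the size of the library), rounded to 0.01. No control precipitation without PRMT5 was analysed here. No spread between replicates can be given, no value below was tested, and the depth of the libraries is unknown. Of 14 T cell markers, 11 had a peak under their name (not PTPRC, TRBC1 or TRBC2), against 1 of 5 B cell markers (CD79A), 0 of 4 myeloid and 0 of 4 erythroid markers.

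Box C/D RNAs carry fibrillarin, which methylates the ribose of the target base, and box H/ACA RNAs carry dyskerin, which turns uridine into pseudouridine. Most targets are ribosomal RNAs, while Cajal-body RNAs direct both reactions on spliceosomal snRNAs. A few guides, such as SNORD3 (U3) and SNORA73 (U17), are known instead for the cleavage of ribosomal precursor RNA. Most human guide RNAs are cut out of introns, often those of ribosomal protein genes or of noncoding host genes named SNHG. PRMT5 makes symmetric dimethylarginine, a mark known on Sm proteins of the spliceosome and on coilin of the Cajal body.

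Sequence could be read for 3 of the member genes and is shown to make the boxes visible. SNORD58B (chr18:49491664-49491729, minus strand, in RPL17) had the peak with the highest ratio among members with at least 100 RPM in input. Its first 30 bases (chr18:49491700-49491729) are printed with the core of the C box, TGATG, in capitals, and its last 30 bases (chr18:49491664-49491693) with the D box, CTGA, in capitals, both 5′ to 3′ from RefSeq (GRCh38.p14).
SNORD58B 5′ end: ctgcgaTGATGgcatttcttaggacacctt
SNORD58B 3′ end: aataatgaaaacaactactctCTGAgcagc
The motifs do not overlap, occupy bases 7 to 11 and 58 to 61 of the gene, and each occurred once in it on the strand of the RNA, the strand that was searched. TGATG was present in 4.625% and CTGA in 25.2% of 34943 promoter windows of the same length, 66 nt, so the letters alone mark no guide RNA. The longer form TGATGA was not in SNORD58B and was in 1.30% of the windows. SCARNA17 had a 25-nt peak at the very 5′ end of the gene (chr18:49814023-49814047, plus strand), shown because the whole peak can be read.
SCARNA17 narrow peak: agaggcttgggccgccgagctggac
SNORA81 is shown because its peak (chr3:186786672-186786846, plus strand) also holds the mature miR-1248 (chr3:186786675-186786701), printed with the seed, bases 2 to 8, in capitals.
miR-1248: aCCUUCUUguauaagcacugugcuaaa
Reads of this peak cannot be divided between the guide RNA and the microRNA from the list.

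Pooled over all levels of input, the guide RNA peaks lay closer to input than the list as a whole. PRMT5 RIP RPM was at least 2 times input RPM in 21 of 54 members, against 56.6% of all peaks and 59.7% of peaks up to 500 nt wide. It was below input in 5 members, against 3.84% of all peaks and 3.94% of peaks up to 500 nt, and the other 28 members lay between. The median ratio of PRMT5 RIP over input was 1.68 for the members (a log2 ratio of 0.74) and 2.18 for all peaks (1.10). Summed over the members, RPM made up 0.354% of the PRMT5 RIP values and 0.366% of the input values of the whole list. The members were also more abundant in input than most peaks, with a median of 5.24 RPM against 0.83 RPM, and in the whole list the ratio was lower where input was higher. Among peaks with 1 to 10 RPM in input the direction was reversed, with a median log2 ratio of 1.20 for 21 members and 0.90 for all peaks. In the other classes the members were lower, with 0.78 against 1.36 under 1 RPM and 0.36 against 0.67 at 10 to 100 RPM. At 100 RPM or more the medians were 0.41 and 0.52. The comparison is therefore also given within classes of input below.

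**Figure D1:**
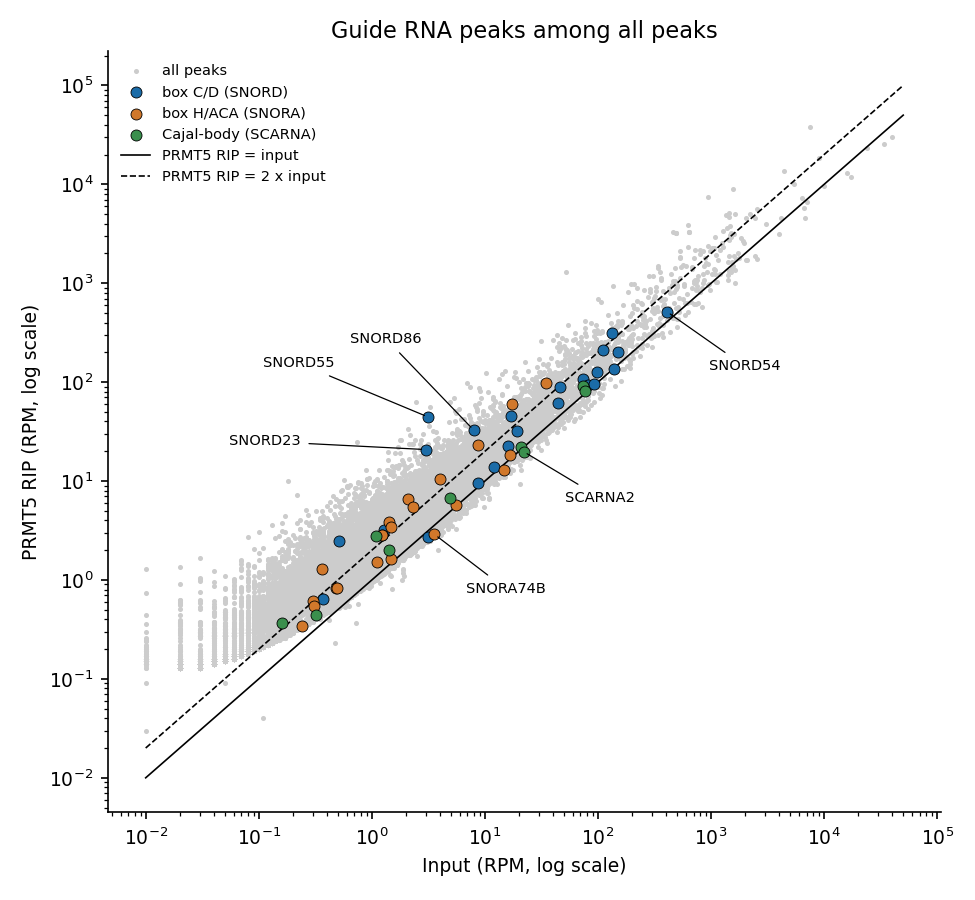
PRMT5 RIP RPM (y axis) against input RPM (x axis), both on log scales, for all peaks with values above 0 (grey) and for the 54 guide RNA peaks (coloured by class), with lines at equal RPM and at 2 times input. The 3 labelled box C/D peaks on the left, SNORD55, SNORD23 and SNORD86, stand above the dashed line, and most other members lie between the lines.

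By class, the median log2 ratio was 0.54 for box C/D, 1.11 for box H/ACA and 0.45 for Cajal-body peaks. At least 2 times input was reached by 7 of 23 box C/D peaks, 12 of 22 box H/ACA peaks and 2 of 9 Cajal-body peaks. Of the classes, box H/ACA lay nearest to the 56.6% of all peaks, and the ranges of all 3 overlapped, from -0.21 to 3.81 for box C/D, -0.31 to 1.82 for box H/ACA and -0.14 to 1.35 for Cajal-body peaks. The median input differed as well, at 19.35 RPM, 1.49 RPM and 4.89 RPM. Among peaks with 1 to 10 RPM in input, the median log2 ratio was 1.67 for 6 box C/D peaks, 1.20 for 12 box H/ACA peaks and 0.49 for 3 Cajal-body peaks, beside 0.90 for all 6302 peaks of that class. Among peaks with 10 to 100 RPM it was 0.48 for 10 box C/D peaks, 0.83 for 4 box H/ACA peaks and 0.09 for 4 Cajal-body peaks, beside 0.67 for all 2163. The order of box C/D and box H/ACA was thus not the same in the 2 classes, whereas Cajal-body peaks were lowest in both. Under 1 RPM it was 1.52 for 2 box C/D peaks, 0.77 for 6 box H/ACA peaks and 0.80 for 2 Cajal-body peaks, beside 1.36 for all 10105. Box C/D was thus above box H/ACA there, as at 1 to 10 RPM and unlike in the pooled medians. Cajal-body peaks were not lowest under 1 RPM.

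Counted within these classes, 13 of 21 members with 1 to 10 RPM in input reached 2 times input (44.1% of all peaks there), against 3 of 18 with 10 to 100 RPM (30.2%), 1 of 5 with 100 RPM or more (27.2%) and 4 of 10 under 1 RPM (71.2%). The 5 members below input had 1 to 10 RPM (2 members, 6.16% of all peaks), 10 to 100 RPM (2 members, 10.4%) or 100 RPM or more (1 member, 18.7%). No member under 1 RPM in input was below input, where 0.356% of all peaks were.

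**Figure D2:**
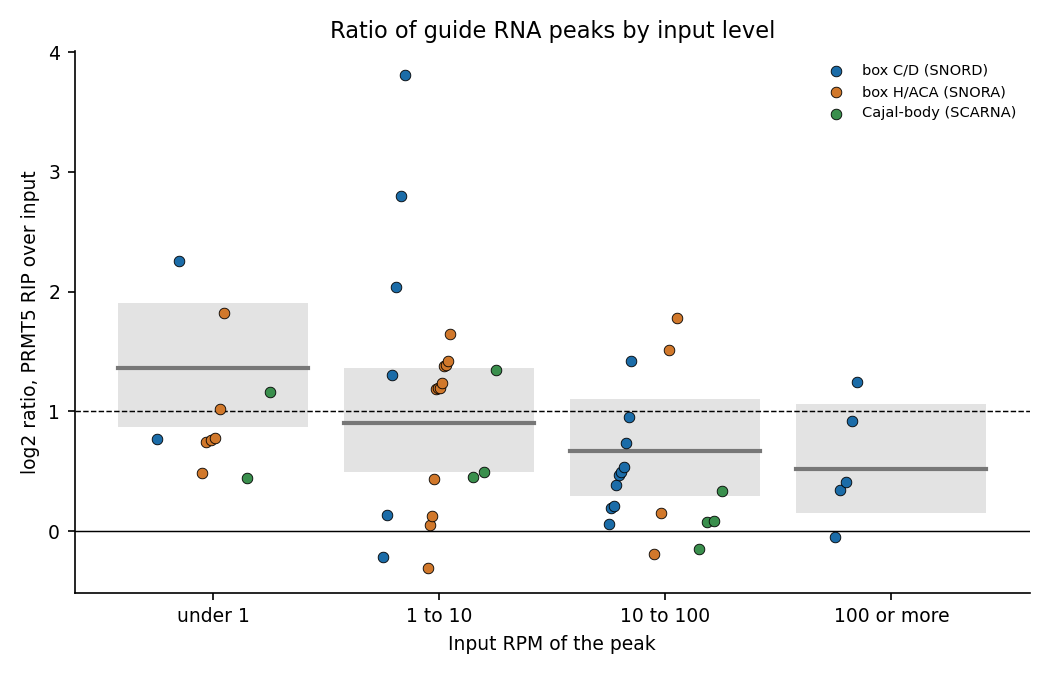
Log2 ratio of PRMT5 RIP over input (y axis) of each guide RNA peak by the input RPM of the peak (x axis). Grey bars span the 25th to 75th percentiles of all peaks in each class of input and grey lines their median, which falls from 1.36 under 1 RPM to 0.52 at 100 RPM or more; the dashed line marks 2 times input. In the class of 10 to 100 RPM the 4 Cajal-body points all lie below the grey line.

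How much of a peak was guide RNA varied. The peak lay wholly inside the gene in 33 members and had at least 80% of its length inside in 42. It covered at least 90% of the gene in 28 members and under 20% in 6. The 12 peaks with less than 80% inside, which also hold sequence of the host gene or flank, had a median log2 ratio of 1.11, against 0.49 for the other 42. Of the former, 5 of 5 box H/ACA peaks and 2 of 7 box C/D peaks were at least 2 times input, and of the latter 7 of 17 and 5 of 16, beside 59.7% of all peaks up to 500 nt wide. Among peaks with at least 80% inside, the class medians were 0.45 for box C/D (16 peaks), 0.76 for box H/ACA (17 peaks) and 0.45 for Cajal-body peaks (9 peaks), so that the distance from box C/D to box H/ACA was -0.31 in place of -0.57.

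**Figure D3:**
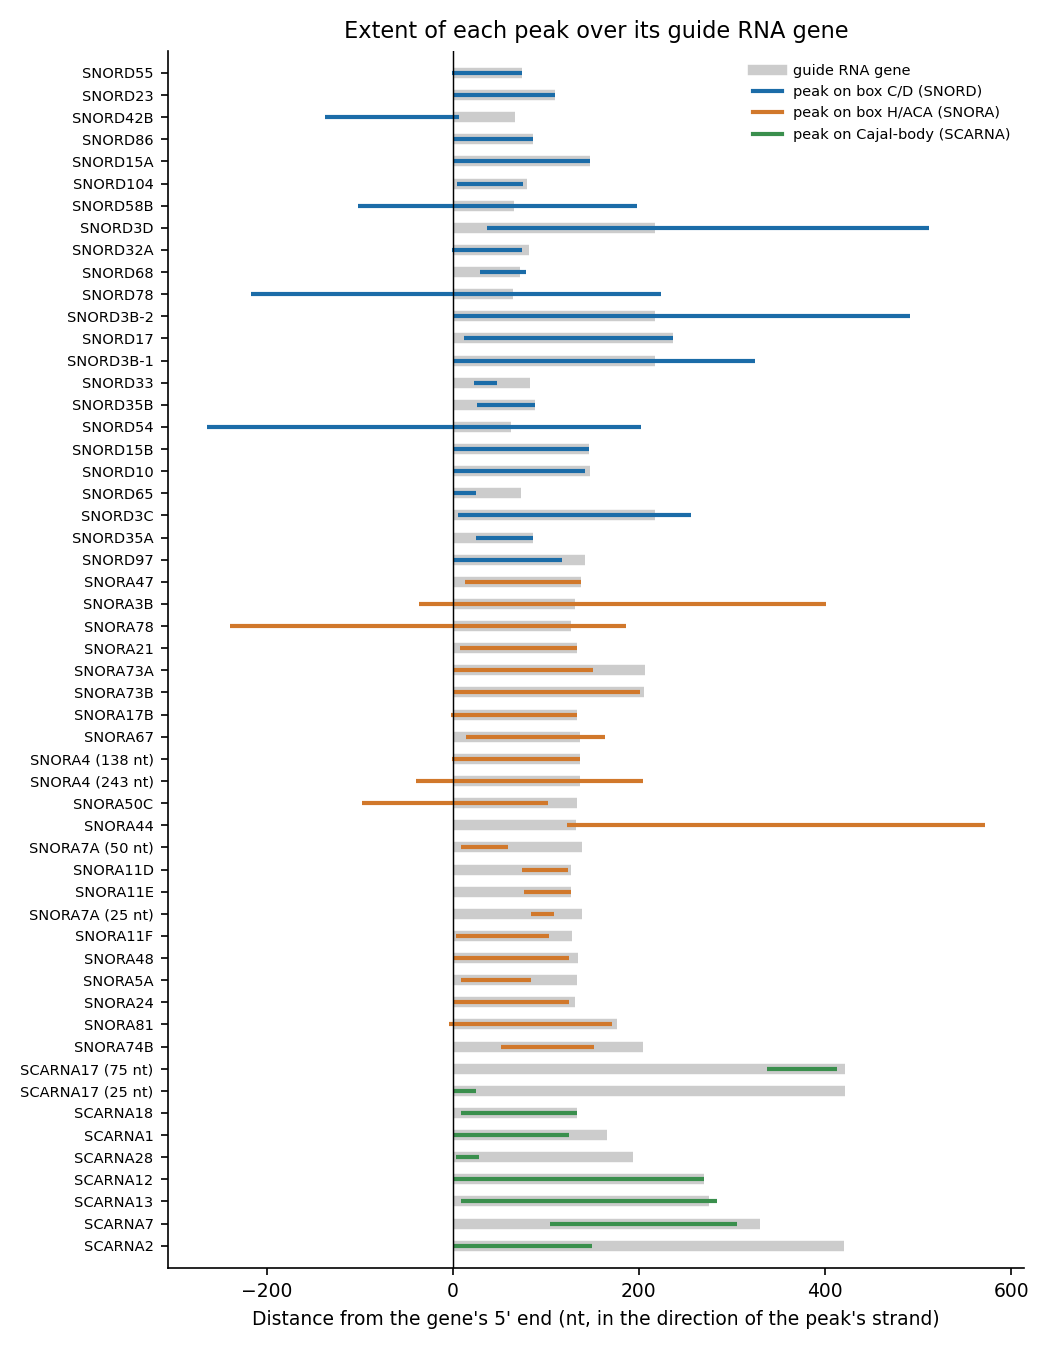
Extent of each of the 54 peaks (coloured bars) over its guide RNA gene (grey bars), in nt from the 5′ end of the gene along the strand of the peak (x axis). Most peaks end with the gene or lie within it, while those on SNORD42B and SNORA44 reach it by only 7 nt and 9 nt.

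Among box C/D RNAs, SNORD55 had the highest ratio of all members. The peak of this guide for ribosomal RNA methylation was 75 nt wide and covered its whole gene. It held 44.30 RPM after precipitation of PRMT5 against 3.16 RPM in input (14.0 times); all values below are given in this order. SNORD23, in the ribosome assembly gene NOP53, had 20.82 RPM against 2.99 RPM (6.96 times), again over its whole length. SNORD86 lies in NOP56, which encodes a core protein of box C/D particles, and had 32.69 RPM against 7.97 RPM (4.10 times). These 3 had the largest ratios among the 44 members with at least 1 RPM in input.

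One more box C/D peak with a ratio above 4, on SNORD42B in RPL23A, had 2.48 RPM against 0.51 RPM (4.86 times), but shared only 7 nt of its 144 nt with the guide gene. Ratios between 2 and 3 were found for SNORD15A in RPS3 (45.54 RPM against 16.96 RPM, 2.69 times), SNORD104 in SNHG25 (3.17 RPM against 1.28 RPM, 2.48 times) and SNORD58B (315.69 RPM against 133.24 RPM, 2.37 times). Only 22.0% of the SNORD58B peak was guide RNA gene, and a peak on the opposite strand overlapped it. The other 16 box C/D peaks were below 2 times input.

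The most abundant box C/D peaks ran from just below input to 2.37 times input, the latter on SNORD58B. SNORD54 had the highest RPM of all members, 516.08 in PRMT5 RIP against 406.34 in input (1.27 times), in a 466-nt peak of RPS20 of which 13.5% was guide gene. Per 100 nt of peak, the highest PRMT5 RIP values among members were those of SNORD33 (798 RPM), SNORD32A (280 RPM), SNORD35A (221 RPM) and SNORD35B (204 RPM). The first 3 lie in the ribosomal protein gene RPL13A. The SNORD33 peak was only 25 nt wide, and a value per length of so narrow a peak depends on the read length, which is not given. SNORD32A had 210.07 RPM against 111.19 RPM (1.89 times), SNORD33 199.60 RPM against 149.79 RPM (1.33 times), SNORD35B 126.50 RPM against 97.00 RPM (1.30 times), and SNORD35A 134.96 RPM against 139.14 RPM (0.97 times). The 3 RNAs of RPL13A thus ran from just below input to almost 2 times input.

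SNORD3, the U3 RNA needed to cleave ribosomal precursor RNA, had 4 member peaks on chromosome 17, on near-identical copies among which reads may have been shared. SNORD3B-2 had 108.03 RPM against 74.38 RPM (1.45 times), SNORD3C 96.19 RPM against 92.28 RPM (1.04 times), SNORD3D 90.08 RPM against 46.43 RPM (1.94 times), and SNORD3B-1 61.19 RPM against 44.30 RPM (1.38 times). All 4 lay between input and 2 times input. The guide gene made up 37.9% of the SNORD3D peak, 44.2% of SNORD3B-2, 66.8% of SNORD3B-1 and 84.4% of SNORD3C. SNORD3A was just outside the width limit, in a 525-nt peak with 414.1 RPM against 263.64 RPM (1.57 times), and the widest member, SNORD3B-2, was just inside it with 491 nt. Without the SNORD3 copies the median log2 ratio of the other 19 box C/D peaks was 0.74. SNORD13, SNORD14, SNORD22 and SNORD118, further guides of ribosomal precursor processing or acetylation, were not among the members.

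The remaining box C/D peaks ran from 0.86 to 1.73 times input. SNORD97, known to guide methylation of a methionine tRNA, had 2.71 RPM against 3.14 RPM (0.86 times) and was with SNORD35A the only box C/D peak below input. SNORD15B, which shares RPS3 with SNORD15A, had 94.33 RPM against 81.48 RPM (1.16 times). SNORD78 in GAS5 had 32.33 RPM against 19.35 RPM (1.67 times) and SNORD17 in SNX5 22.65 RPM against 16.11 RPM (1.41 times). Only 14.7% of the 441-nt SNORD78 peak was guide gene, and its strand was read from the host gene. SNORD10, SNORD65 and SNORD68 had ratios of 1.14, 1.10 and 1.73, the last at only 0.37 RPM in input. A peak over SNORD141A had 101.88 RPM against 74.59 RPM (1.37 times) but was left out, because its strand could not be matched.

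**Figure D4:**
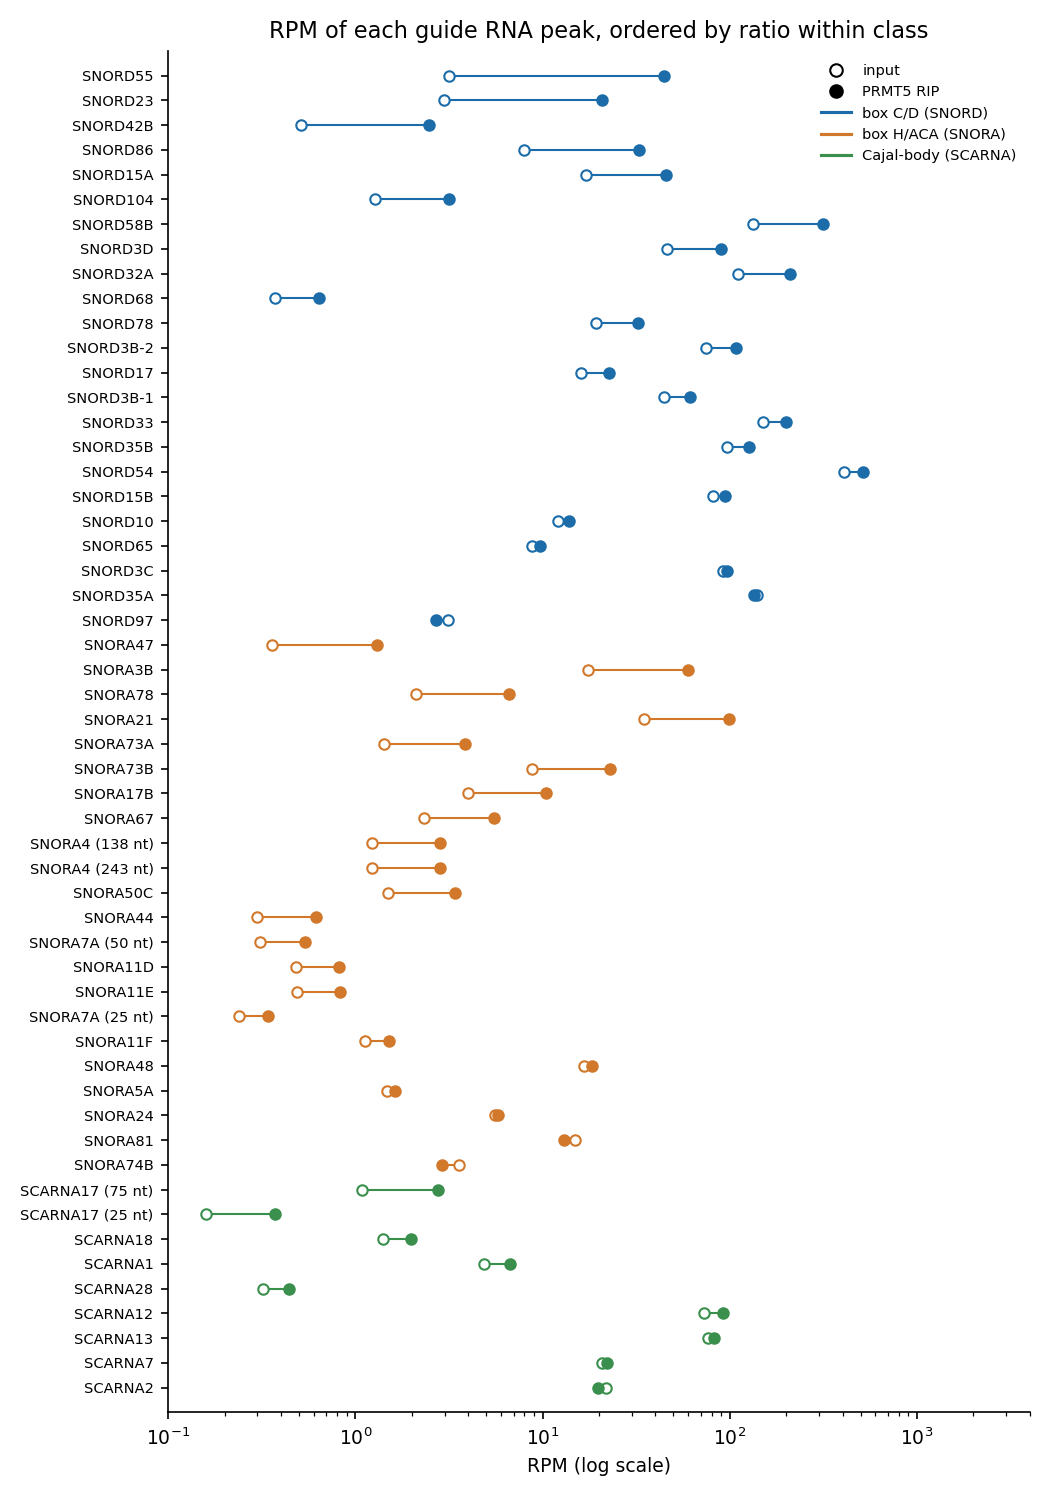
RPM on a log scale (x axis) of each of the 54 guide RNA peaks in input (open circles) and PRMT5 RIP (filled circles), ordered within each class by their ratio; genes with 2 peaks are marked by peak width. SNORD55 shows the longest line, and in 5 peaks the filled circle lies to the left of the open one.

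Among box H/ACA RNAs, no peak reached 4 times input, and 12 of 22 were at least 2 times input. The highest with at least 1 RPM in input were SNORA3B in RPL27A (59.83 RPM against 17.41 RPM, 3.44 times) and SNORA78 in SNHG9 (6.59 RPM against 2.10 RPM, 3.14 times). Both peaks were more than 400 nt wide, with 29.98% and 29.88% of their length in the guide gene. SNORA47 in ZBED3 had a higher ratio, 3.61, from 1.30 RPM against 0.36 RPM. SNORA21, in the ribosomal protein gene RPL23, was the most abundant box H/ACA peak and lay wholly inside its gene, with 98.77 RPM against 34.68 RPM (2.85 times).

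SNORA73A and SNORA73B, the copies of the U17 RNA known for cleavage of ribosomal precursor RNA, both lie in SNHG3. SNORA73A had 3.84 RPM against 1.43 RPM (2.69 times) and SNORA73B 22.88 RPM against 8.74 RPM (2.62 times). The 2 ratios differ by 0.03 on the log2 scale at levels several times apart. Reads may have been shared between these copies too, so the ratios may not be independent. SNORA17B in SNHG7 (10.40 RPM against 3.99 RPM, 2.61 times), SNORA67 in EIF4A1 (5.50 RPM against 2.32 RPM, 2.37 times) and SNORA50C (3.41 RPM against 1.49 RPM, 2.29 times) were likewise above 2 times input. SNORA4 in EIF4A2 had 2 nested peaks with the same values, 2.83 RPM against 1.23 RPM (2.30 times). SNORA44 reached 2.07 times at 0.30 RPM in input, but only 9 nt of its 449-nt peak were in the guide gene.

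The other box H/ACA peaks were nearer to input. SNORA81 in EIF4A2 had 12.96 RPM against 14.82 RPM (0.87 times) and SNORA74B in ATP6V0E1 had 2.89 RPM against 3.58 RPM (0.81 times), the lowest ratio of all members. SNORA48 in EIF4A1 had 18.42 RPM against 16.61 RPM (1.11 times) and SNORA24 in SNHG8 5.79 RPM against 5.58 RPM (1.04 times). SNORA5A and SNORA11F had ratios of 1.09 and 1.36, and the near-identical SNORA11D and SNORA11E, in the paralogs MAGED4 and MAGED4B, had 1.71 and 1.69. The 2 peaks of SNORA7A in RPL32 had ratios of 1.74 and 1.42 at 0.31 RPM and 0.24 RPM in input, and both overlapped a peak on the opposite strand.

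The 4 Cajal-body RNAs with the highest RPM were close to input. SCARNA12 in PHB2 had 92.22 RPM against 73.13 RPM (1.26 times) and SCARNA13 in SNHG10 had 81.84 RPM against 76.91 RPM (1.06 times). SCARNA7 in KPNA4, a guide for U1 snRNA, had 22.07 RPM against 20.86 RPM (1.06 times), and SCARNA2, a guide for U2 snRNA that is transcribed from its own promoter, had 19.86 RPM against 21.94 RPM (0.91 times). Their ratios thus ran from just below to just above input. SCARNA1 (6.70 RPM against 4.89 RPM), SCARNA18 (1.99 RPM against 1.41 RPM) and SCARNA28 (0.44 RPM against 0.32 RPM) had ratios of 1.37, 1.41 and 1.38.

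SCARNA17, a methylation guide for minor and major spliceosomal snRNAs, was the only Cajal-body gene at 2 times input. Its 75-nt peak near the 3′ end had 2.76 RPM against 1.08 RPM (2.56 times). The 25-nt peak at the 5′ end, printed above, had 0.37 RPM against 0.16 RPM (2.31 times), a ratio that rounding leaves between 2.21 and 2.42. These peaks cover 17.8% and 5.94% of the gene, and both overlapped a peak on the opposite strand. Without them the median log2 ratio of the other 7 Cajal-body peaks was 0.33.

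Most guide RNAs sit inside another gene, so their peaks were set beside those of the host. Of the members, 48 lay inside another gene, 15 of them in RPL or RPS genes and 12 in SNHG genes or GAS5. The median log2 ratio was 0.78 for the members in ribosomal protein genes (6 of 15 at least 2 times input) and 1.23 for those in SNHG genes or GAS5 (8 of 12). It was 0.45 for the 21 members in other hosts (6 of 21) and 0.50 for the 6 members that no other gene wholly enclosed (1 of 6). The 1 peak of that last group at 2 times input, on SNORA50C, lies close to SNORD104, which is in SNHG25. The SNHG group was thus the one above the 56.6% of all peaks, at a median input of 3.05 RPM, and it counts both SCARNA17 peaks. At 1 to 10 RPM in input, 13 of 21 members of any host reached 2 times input, so its share cannot be told apart from its level. The ribosomal protein group had a median input of 34.68 RPM.

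For 24 members a wider peak of the same strand around the guide peak was compared with it, which gives a comparison at 1 locus, although both peaks share sequence and may share reads. The guide peak had the higher ratio in 15, the lower in 8, and the same in SNORA4, with a median difference of 0.03 on the log2 scale. SNORD23 differed most, with 6.96 times against 2.97 times for the NOP53 peak around it (1435.03 RPM against 483.72 RPM), a log2 difference of 1.23. Its RPM was 1.45% of that of the enclosing peak in PRMT5 RIP and 0.618% in input. It was followed by SNORD32A in RPL13A with 0.56 and SNORD86 in NOP56 and SNORA17B in SNHG7 with 0.51 each.

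At the other end, SNORD35A was 0.41 lower than the RPL13A peak that also encloses SNORD32A and SNORD33, and SNORA24 was 0.25 lower than the SNHG8 peak. Among the 15 guide peaks that held under 50% of the PRMT5 RIP RPM of the enclosing peak, 9 were higher and 6 lower. For SNORD17, SCARNA7, SNORA73A and SCARNA1 the guide peak held most of the RPM of the wider peak (from 79.0% to 95.0% in PRMT5 RIP), and the ratios differed by at most 0.03. SNORA47 also held most of it (92.9%) and differed from its wider peak by -0.11.

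**Figure D5:**
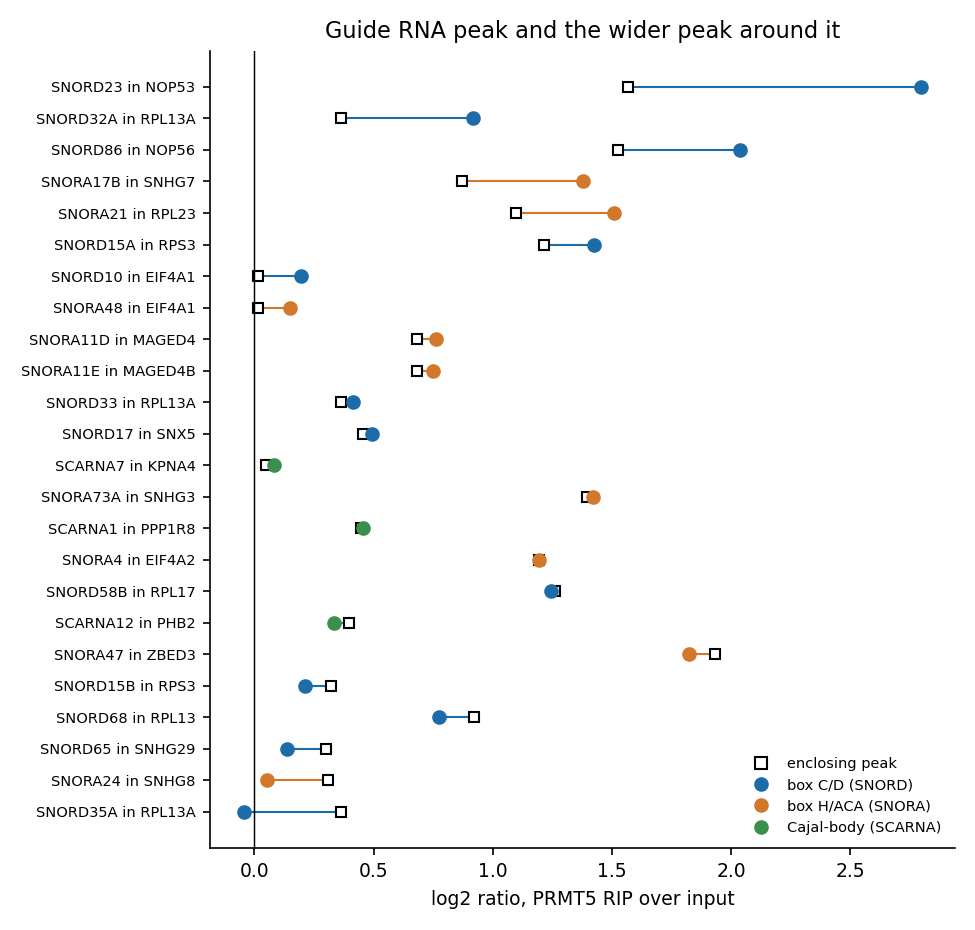
Log2 ratio of PRMT5 RIP over input (x axis) of 24 guide RNA peaks (circles) and of the wider same-strand peak that encloses each (squares), ordered by the difference. SNORD23 lies 1.23 to the right of the NOP53 peak, while most circles lie close to their square.

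Host peaks that touched no guide RNA gene were compared for 30 members. The guide peak was higher than their median in 17 and lower in 13, with a median difference of 0.15 on the log2 scale. The difference was largest for SNORD86 (2.14 above the other peaks of NOP56) and SNORD42B (2.01 above those of RPL23A). The 2 NOP56 peaks summed to only 6.74 RPM against 7.08 RPM, without the wider peak around SNORD86 (233.91 RPM against 81.35 RPM). The 4 RPL23A peaks summed to 148.74 RPM against 35.84 RPM, but their median weighs small and large peaks alike. Only 7 nt of the SNORD42B peak lay in its guide gene. The most negative differences were those of SCARNA13 (-2.51, against 1 SNHG10 peak with 3.08 RPM against 0.50 RPM) and SCARNA7 (-1.57, against 1 KPNA4 peak). The 2 comparisons could point in opposite directions. SNORA17B, above its enclosing peak, differed by -0.67 from the median of 5 other SNHG7 peaks (2.61 times against 4.25 times). Where a host holds several members their ratios could differ widely. In EIF4A2, SNORA4 and SNORA81 were 1.39 apart on the log2 scale, in RPS3, SNORD15A and SNORD15B were 1.21 apart, and in EIF4A1, SNORA67 was 1.09 above SNORA48, with SNORD10 close to the latter. In RPL13A the span was 0.96.

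The RNAs most like the guides are other small noncoding RNAs in stable particles. The 13 spliceosomal snRNA peaks taken by the same overlap rule had a median log2 ratio of 0.43 at a median input of 68.34 RPM. For the Cajal-body peaks it was 0.45 at a median input of 4.89 RPM, so the levels were unlike. At 10 to 100 RPM in input, RNU5A-1, RNU4-1, RNU4-2 and RNVU1-18 had log2 ratios from 0.39 to 0.50. Cajal-body peaks of that class ran from -0.14 to 0.33. RNU12 was the only 1 of the 13 snRNA peaks at 2 times input (7.48 RPM against 3.03 RPM, 2.47 times), beside 56.6% of all peaks. TERC, the telomerase RNA, which ends in a box H/ACA domain bound by dyskerin, had 294.88 RPM against 79.03 RPM (3.73 times), above the ratio of every box H/ACA member. RMRP, the RNA of RNase MRP, had 5.05 times input. The other 5 of these 7 peaks were below input, beside 18.7% of all peaks with 100 RPM or more in input. They were RPPH1 (0.75 times), RN7SK (0.68 times) and 3 peaks of the 7SL genes RN7SL1 and RN7SL2 (0.68 to 0.78 times). The lowest input among these 5, on RN7SL1, was 4022 RPM, far above that of any guide RNA peak.

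The mRNAs of the guide RNA particles themselves were also in the list. Of 27 listed genes of core proteins, assembly factors and Cajal-body factors, 20 had peaks whose first identifier was matched to their name, 55 in all. NOP56, PIH1D1, RPAP3, ZNHIT6, COIL, PHAX and NAT10 were not counted, although peaks in NOP56 are given above by position. Of the 55, 25 were at least 2 times input (56.6% of all peaks) and 2 were below it (3.84% of all peaks), with a median log2 ratio of 0.87 beside 1.10 for all peaks. In the peak with the highest input of each gene, FBL (fibrillarin) had 307.19 RPM against 205.07 RPM (1.498 times), DKC1 (dyskerin) 4.59 RPM against 2.67 RPM (1.72 times), NHP2 of the box H/ACA core 234.42 RPM against 92.25 RPM (2.54 times) and SNU13 of the box C/D core 81.91 RPM against 67.44 RPM (1.21 times). Other peaks of these genes could differ from it, as the remaining 3 of SNU13 were at 3.625, 6.30 and 5.06 times input, and the remaining 7 of DKC1 between 1.33 and 4.68 times. The highest ratios of the peaks with the highest input were those of TGS1, which forms the trimethyl cap (4.65 times, at 0.17 RPM in input), and NAF1, a box H/ACA assembly factor (4.58 RPM against 1.16 RPM, 3.95 times). NOPCHAP1, a box C/D assembly factor, had 8.87 RPM against 9.16 RPM (0.97 times) in that peak and 1.54 times input in its other peak.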

How the data were processed

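The authors deposited 1 peak list for 2 PRMT5 RIP and 2 input libraries, with 1 pooled RPM value per side and peak. Per the labels, the libraries were made with a directional kit and processed with fastp and HISAT2 on hg38. The peak caller, the scaling, the annotation, the treatment of reads with several matches and the pooling are not given in the sources used here. The deposited log2 fold change, p-value, FDR and score are the peak caller's own comparison and were not used as results; the log2 fold change entered 1 alternative. RPM values took 20 of 20 low steps of 0.01, so reads and depth could not be recovered. A peak enters the list only through the caller, so ratios describe listed peaks only.

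Starts were raised by 1. The RefSeq table gives no strand for guide genes, and 0 of 850 identifiers named in the part of the supplementary gene table used here were guide RNAs. A strand was therefore read from an identifier whose peaks all lay within 500 nt of the guide gene (53 members) or from the host gene (1 member). Where strand was known for named genes, 1731 of 1731 peaks lay on it. Log2 ratios are of RPM plus 0.01. Plain ratios have no pseudocount. Comparisons of 2 members with their host genes are not reported here. Peaks are not replicates and no test was made; values are from bulk cells, so more cells with an RNA and more RNA per cell cannot be told apart. The rule for named genes was the 8 of each class with the highest PRMT5 RIP RPM, the 5 highest and 5 lowest ratios with at least 1 RPM in input, guides of precursor processing, and named members under an opposite-strand peak; other members are given as the rest of each class. The members and lists were chosen with earlier results of these data known. The overlap and ratio steps were tested on simulated data. Scripts ran in Python 3.11.15 (pandas 2.3.3; numpy 2.4.6; matplotlib 3.10.9).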

Additional observations from a re-analysis of the deposited data

How the results depend on the processing

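Of 65 alternative values, 40 stayed close to those reported (within 0.1 on the log2 scale, or within 1.5 times for a count), 25 moved and 0 reversed. The causes were not tested. A count could only stay close or move, so only medians and their difference could have reversed. No alternative split the peaks by input, and the order of box C/D and box H/ACA did change between classes of input, as given above. With a pseudocount of 0.1 RPM the box H/ACA median was 0.99 and the difference of box C/D from box H/ACA -0.46. With 1 RPM, which shrinks low peaks most, the medians were 0.54 for box H/ACA and 0.24 for Cajal-body peaks, the difference was -0.071 and 11 members reached 2 times input. With at least 1 RPM in input the Cajal-body median was 0.33 and the difference -0.70. Where the peak covered at least 50% of the gene, the medians were 0.64 for box C/D, 1.22 for box H/ACA and 0.33 for Cajal-body, and 3 members were below input. Without peaks under an opposite-strand peak the Cajal-body median was 0.33 and the difference -0.68. Without peaks that list several identifiers the box H/ACA median was 0.75, the difference -0.26, 12 members reached 2 times input and 3 were below it. With the deposited log2 fold change, centred like the RPM ratio, the medians were 0.81 for box C/D and 0.34 for Cajal-body, the difference -0.23, and 3 members were below input. With at least 80% of the peak inside the gene, an alternative chosen after seeing the data, the box H/ACA median was 0.76 and the difference -0.31. Without the width limit, 129 peaks were members. Mapping identifiers through further reference columns was not run, because the Ensembl column was empty. No paired analysis was possible because the deposited columns are pooled over libraries, and no replicate could be left out for the same reason.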
